A study of Mus musculus with 6 samples.

Results

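The genes described here encode neurotrophic factors, which are secreted proteins that keep neurons alive, and their receptors. They are the ligands Gdnf, Bdnf, Hgf, Manf and Cdnf and the receptor genes Ret, Gfra1, Gfra2, Ntrk2 and Met, chosen by symbol. All 10 had a row among the 19251 genes of the deposited count table. The libraries were made from polyadenylated RNA of the substantia nigra, the midbrain nucleus whose dopamine neurons degenerate in Parkinson's disease. All libraries came from C57BL/6 mice labelled rAAV-A53T-aSynuclein, given by surgery a recombinant adeno-associated virus for the A53T form of alpha-synuclein. The control group carried it too, so the comparison is between diets within the disease model, and animals without the vector were not analysed here. Mice had been allocated at random to an ad libitum diet (3 libraries) or to intermittent fasting (3 libraries), a regime of 24 hours without food on 3 days a week, and both groups were moved between cages alike. The diets began 2 weeks after surgery and lasted 10 weeks. The labels do not give the age or sex of the mice, the promoter of the vector, or whether each library was a single animal, so a p-value measures only the spread between these libraries.

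As background, GDNF binds the co-receptor GFRA1, and the pair activates the receptor tyrosine kinase RET. GFRA2 is the preferred co-receptor of neurturin, a relative of GDNF. BDNF activates the kinase TrkB, encoded by Ntrk2, and HGF activates the kinase MET. MANF and CDNF form a separate family, kept largely in the endoplasmic reticulum (ER), where they ease protein folding stress. Each of these ligands has been studied as a protective factor for dopamine neurons.

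The libraries held 42990234 to 48179706 estimated counts. Levels are given in CPM, the count of a gene per 1e6 counts of its library after scaling between libraries by the trimmed mean of M values (TMM). Means carry the SD over 3 libraries, and single values follow the order of replicates 1, 2 and 3. Markers of dopamine neurons were detected in all libraries, and none of the 91 marker genes tested was at 0 in any, but dopamine markers differed in amount. Their summed level over 10 genes was 2020 CPM in ad libitum replicate 3 and 1392 CPM in fasting replicate 2, against 754 to 843 CPM in the other libraries. Ad libitum replicate 2 stood apart in another way. Its summed level of 5 cholinergic and motor neuron markers was 95.1 CPM against 10.5 to 19.4 CPM elsewhere, and that of 7 hypothalamic neuron markers was 536 CPM against 13.7 to 158 CPM. Member values that rest on these libraries are given with and without them.

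Hgf, the ligand of MET, differed most between diets: it was 4.15-fold lower under fasting, but it just missed the threshold of an adjusted p below 0.05. No other member passed any of the 3 tests. By the quasi-likelihood test of edgeR, with adjustment over 19109 genes, 0 of 10 members were called, where 0.497% of all genes were. DESeq2 called 1 member, Hgf, and 7.4% of all genes. The limma-voom test called 0 members and 0.167% of all genes. At an unadjusted edgeR p below 0.05 stood 1 member, again Hgf, against 20.4% of all genes, 8.74% higher and 11.6% lower under fasting. The groups did not overlap in 3 of 10 members, Gfra2 and Cdnf higher and Hgf lower under fasting, against 27.5% of all genes, 12.5% higher and 15% lower. The median log2 fold change (fasting minus ad libitum) was 0.04 over the members and -0.0050 over all genes tested, with 5 members above 0 and 5 below.

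**Figure D1:**
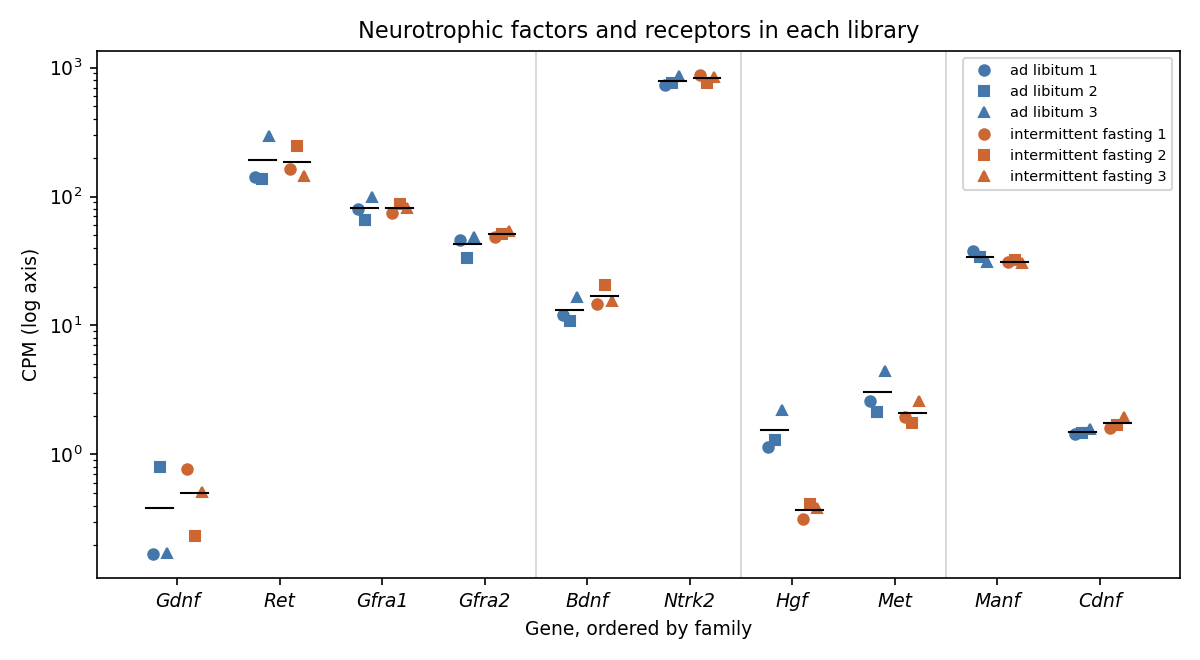
CPM of each neurotrophic factor and receptor gene (log axis) in the 6 libraries, blue for ad libitum and orange for intermittent fasting, with marker shapes for replicates 1 to 3 and a line at each group mean. Hgf lies between 1.14 and 2.22 CPM ad libitum and between 0.318 and 0.416 CPM under fasting, while the groups of Ret, Gfra1, Bdnf, Ntrk2, Met, Manf and Gdnf overlap.

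The members covered a wide range of levels, with Ntrk2 and Ret well above their ligands Bdnf and Gdnf. Divided by the length of the longest coding transcript, Ntrk2 had the highest level, 92.1 ± 7.43 CPM per kilobase over the 6 libraries. Ret followed at 34.5 ± 12.3, then Gfra1 at 17.6 ± 2.52, Manf at 14.6 ± 1.20, Gfra2 at 13.5 ± 2.10 and Bdnf at 3.54 ± 0.817 CPM per kilobase. Cdnf at 0.538 ± 0.0603, Met at 0.379 ± 0.144, Hgf at 0.278 ± 0.215 and Gdnf at 0.121 ± 0.0806 CPM per kilobase were the lowest. In this order Gfra1, Manf and Gfra2 overlapped with their neighbours over the 6 libraries, as did Cdnf, Met, Hgf and Gdnf, and the other steps did not overlap. With all annotated exons as the length, Gfra2 stood above Manf and the ranges of Ntrk2 and Ret overlapped. Lengths and counts rest on different annotations, so these levels are approximate.

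Gdnf (ENSMUSG00000022144), the founding ligand of its family, was close to the limit of these libraries. Ad libitum libraries gave 8, 39 and 8 Gdnf counts, fasting libraries 34, 10 and 24. Its level was 0.382 ± 0.367 CPM ad libitum and 0.505 ± 0.271 CPM under fasting. The high ad libitum value came from replicate 2 alone, and the groups overlapped. The log2 fold change was 0.40 with a 95% interval of -1.34 to 2.13 (edgeR adjusted p = 0.795), and without ad libitum replicate 2 it was 1.55 (adjusted p = 0.232). Without fasting replicate 1 the value was -0.05, and its direction turned.

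Ret (ENSMUSG00000030110), the signalling receptor of the GDNF family, did not separate the diets but varied 2.17-fold between libraries. Ad libitum libraries read 143, 137 and 296 CPM for Ret, fasting libraries 162, 246 and 145 CPM. Ad libitum replicate 3 and fasting replicate 2 were high, and the other libraries lay close together. The log2 fold change was -0.06, with a 95% interval of -1.02 to 0.91 (edgeR adjusted p = 0.949), and leaving out 1 library moved it between -0.32 and 0.40. The libraries high in Ret were those with the highest summed level of dopamine neuron markers, though not every marker followed this pattern. Th, the rate-limiting enzyme of dopamine synthesis, read 86.3, 92.6 and 236 CPM in the ad libitum group, then 105, 189 and 93.7 CPM in the fasting group. Slc6a3, the dopamine transporter, read 247, 240 and 653 CPM, then 222, 403 and 180 CPM. Drd2 was instead highest in ad libitum replicate 2, at 28.0, 74.7 and 62.7 CPM, then 27.9, 43.3 and 29.6 CPM. Nr4a2 read 12.2, 15.3 and 37.8 CPM, then 30.7, 39.1 and 30.8 CPM, so it was also raised in fasting replicates 1 and 3. Of the 10 dopamine neuron markers 0 were called by edgeR, DESeq2 or limma-voom, with 0 at an unadjusted edgeR p below 0.05, and 8 of them had a log2 fold change below 0, with a list median of -0.31.

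Relative to Th, Ret spanned 0.40 on the log2 scale across the 6 libraries. The log2 ratio of Ret to Th stood at 0.73, 0.56 and 0.33 in the ad libitum group, and at 0.63, 0.38 and 0.63 with fasting. Its means were 0.54 ± 0.20 and 0.55 ± 0.15 (SD, n = 3 each, exact two-sided permutation p = 1.0, where 0.1 is the smallest p possible). Against the mean of the other 9 dopamine markers the ratio was 2.03 ± 0.18 ad libitum and 2.18 ± 0.10 under fasting (SD, n = 3 each, exact two-sided permutation p = 0.3). These ratios were chosen after the values were seen. Among 15552 genes with a mean of at least 1 CPM, the genes whose log2 CPM over the 6 libraries was most like that of Ret were Lrrc3b (Pearson r = 0.996), Th (r = 0.995) and Chrna5 (r = 0.993), a nicotinic receptor subunit. The likeness rests in part on the high libraries: over the other 4 the r was 0.91 for Lrrc3b, 0.81 for Th and 0.75 for Chrna5. In bulk RNA fewer dopamine neurons in a sample and less transcript per neuron cannot be told apart.

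**Figure D2:**
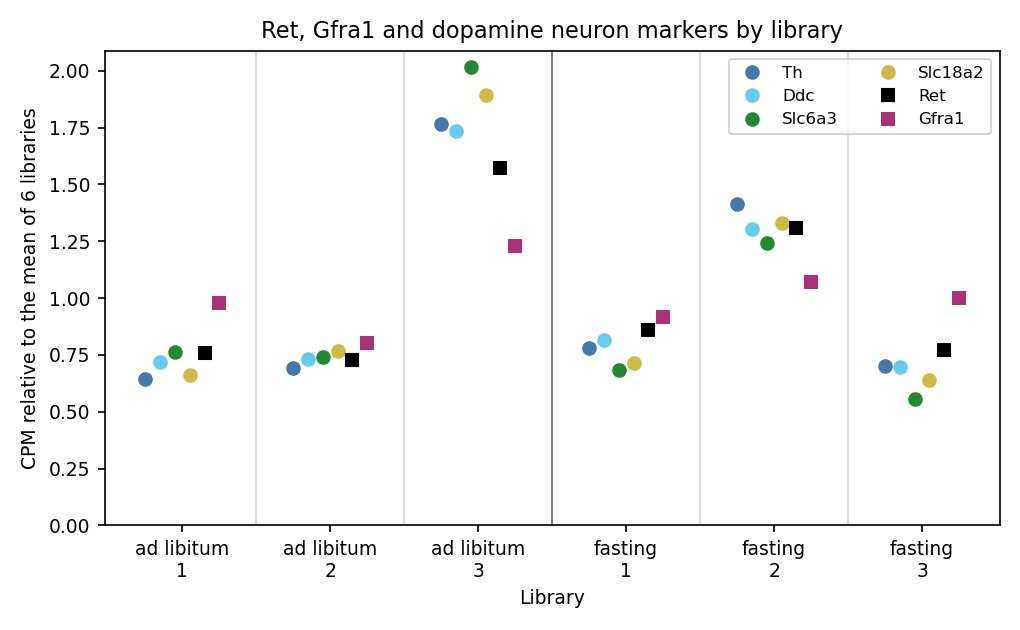
CPM of Ret and Gfra1 (squares) and of the dopamine neuron markers Th, Ddc, Slc6a3 and Slc18a2 (circles) in each library, divided by the gene's mean over the 6 libraries. All of these genes are highest in ad libitum replicate 3 and next highest in fasting replicate 2, where Ret is at 296 and 246 CPM, and Gfra1 varies least.

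Gfra1 (ENSMUSG00000025089), the co-receptor that brings GDNF to RET, read 79.8, 65.4 and 100 CPM in the ad libitum group. Fasting libraries read 74.7, 87.3 and 81.6 CPM. The fasting values fell inside the ad libitum range, and the means were 81.7 ± 17.4 and 81.2 ± 6.32 CPM. The log2 fold change was -0.01 with a 95% interval of -0.38 to 0.37 (edgeR adjusted p = 0.980). Of its sequence, in words of 31 bases, 7.05% lies opposite Gm16277.

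Gfra2 (ENSMUSG00000022103), the co-receptor preferred by neurturin, was higher in every fasting library than in any ad libitum library, by a small margin. Ad libitum libraries read 45.9, 33.4 and 48.2 CPM for Gfra2, fasting libraries 48.7, 51.4 and 54.4 CPM. The lowest value was that of ad libitum replicate 2. The means were 42.5 ± 7.95 and 51.5 ± 2.87 CPM, and the log2 difference was 0.28 (SE 0.14, edgeR adjusted p = 0.319), which was 0.13 without ad libitum replicate 2 (adjusted p = 0.373).

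Among 9 further genes for ligands and receptors of the GDNF family, 5 were tested, and 0 were called by edgeR, DESeq2 or limma-voom. At an unadjusted edgeR p below 0.05, 1 was higher and 1 lower, where 8.74% and 11.6% of all genes were. Gfra4, the co-receptor of persephin, was at 18.2 ± 0.941 CPM ad libitum and 20.5 ± 0.315 CPM under fasting (log2 fold change 0.17, edgeR adjusted p = 0.203). Nrtn, which encodes neurturin, was at 4.02 ± 1.04 and 2.71 ± 0.464 CPM (log2 fold change -0.57, edgeR adjusted p = 0.226). The groups of Gfra4 did not overlap and those of Nrtn did. The median log2 fold change of the list was 0.03.

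Bdnf (ENSMUSG00000048482), the ligand of TrkB, was higher on average under fasting but the groups overlapped. Ad libitum libraries read 12.1, 10.9 and 16.6 CPM for Bdnf, fasting libraries 14.7, 20.7 and 15.5 CPM. The highest library of each group was again ad libitum replicate 3 and fasting replicate 2, those with the most dopamine marker RNA, whose part in the Bdnf values was not tested. The means were 13.2 ± 3.03 and 17 ± 3.27 CPM, a log2 fold change of 0.36 with a 95% interval of -0.12 to 0.84 (edgeR adjusted p = 0.367). Leaving out ad libitum replicate 3 gave 0.56, and leaving out fasting replicate 2 gave 0.19. The genes most like Bdnf over the 6 libraries were Polr2m (r = 0.99), Magee1 (r = 0.99) and Slc1a6 (r = 0.98).

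Mouse Bdnf is read from several promoters, one of the best known features of the gene, because each answers to different signals. The deposited counts sum over all of them. RefSeq windows from 250 bases before to 50 bases after a start were at hand for 7 of the 10 members, 15 windows in all, and 7 of these belong to Bdnf. The cAMP response element, the site of the activity-driven factor CREB, was searched only in its exact form TGACGTCA, so variant forms were not counted. This exact form was in none of the 15 windows on either strand and in 1.79% of all 32851 windows. Its 5-base core TGACG, counted on both strands, was in 20.8% of all windows and in 1 of the 7 windows of Bdnf. That window is shown because it is the one Bdnf start with this core, at chr2:109692186-109692485 on the plus strand of GRCm38.p6, with the core in capitals as its reverse complement.
Bdnf: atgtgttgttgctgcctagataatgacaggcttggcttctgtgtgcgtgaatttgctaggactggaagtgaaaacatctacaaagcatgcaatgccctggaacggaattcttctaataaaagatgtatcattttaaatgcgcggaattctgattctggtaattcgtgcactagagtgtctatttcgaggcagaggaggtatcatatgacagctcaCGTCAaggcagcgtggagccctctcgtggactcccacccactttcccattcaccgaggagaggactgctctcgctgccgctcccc
The capitals start at base 216 of the window, and a match is a description of the letters only. With the bases before them they read tcaCGTCA, where the exact element reads TGACGTCA. Whether CREB binds there was not tested. Of the sequence of Bdnf, 13.5% of the words lie opposite other genes, mainly Gm45346, and no source used here states whether counting used strand.

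Ntrk2 (ENSMUSG00000055254), which encodes TrkB, was the most abundant member and one of the steadiest. Ad libitum libraries read 726, 761 and 860 CPM for Ntrk2, fasting libraries 880, 757 and 849 CPM. The groups overlapped, with a log2 fold change of 0.08 and a 95% interval of -0.13 to 0.29 (edgeR adjusted p = 0.641). The gene makes a full-length kinase and truncated forms without one, and gene counts do not separate them.

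Of 10 other genes for neurotrophins and their receptors, 9 were tested and 0 were called by edgeR, DESeq2 or limma-voom. At an unadjusted edgeR p below 0.05 stood 0, against 20.4% of all genes, and the median log2 fold change was -0.10. The sorting receptors had the smallest p-values: Sorcs3 was at 35.1 ± 6.02 and 41.7 ± 0.947 CPM (edgeR adjusted p = 0.314) and Sort1 at 405 ± 39.2 and 367 ± 6.12 CPM (edgeR adjusted p = 0.368). Ngfr, the p75 receptor, showed ad libitum replicate 2 apart. It was at 38.2 CPM there, against 5.38 and 3.44 CPM in its group's replicates 1 and 3, and 3.96, 5.27 and 4.95 CPM with fasting. Chat, the acetylcholine-making enzyme, read 0.656, 22.9 and 2.14 CPM in the ad libitum group, then 0.341, 0.393 and 1.24 CPM with fasting. Isl1, of the same marker list, was instead highest in fasting replicate 3, at 11.9 CPM against 9.54 CPM in ad libitum replicate 2. Ngfr is known as a marker of basal forebrain cholinergic neurons, and their part in its values was not tested. Ngfr, Chat and Isl1 were picked once their values were known. Of 12 genes that process or release proneurotrophins, 11 were tested and 0 were called by edgeR, with 9 above 0 and a median of 0.08. At an unadjusted edgeR p below 0.05, 1 was higher and 1 lower, where 8.74% and 11.6% of all genes were. DESeq2 called 2, Pcsk6 lower and Pcsk2 higher, against 7.4% of all genes, and limma-voom 0. The proprotein convertases Pcsk6 (log2 fold change -0.38, edgeR adjusted p = 0.0685) and Pcsk2 (0.63, edgeR adjusted p = 0.167) had the smallest p-values.

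Hgf (ENSMUSG00000028864) was lower in every fasting library than in any ad libitum library. Ad libitum libraries gave 54, 63 and 104 Hgf counts, fasting libraries 14, 18 and 18. The fasting libraries were close to each other at 0.318, 0.416 and 0.384 CPM, and the ad libitum libraries spread from 1.14 to 2.22 CPM. The mean was 1.56 ± 0.583 CPM ad libitum and 0.373 ± 0.0498 CPM under fasting (SD, n = 3 each). The log2 fold change was -2.05 (SE 0.32, 95% interval -2.81 to -1.29, edgeR adjusted p = 0.0568). Of 19109 genes, 37 had a log2 fold change at least as low, Hgf included, and 124 had a p at least as small. The adjusted p was 0.000125 with DESeq2 and 0.0781 with limma-voom. Leaving out 1 library kept the log2 fold change between -2.23 and -1.71, while the adjusted p ran from 0.0223, without ad libitum replicate 1, to 0.290, without fasting replicate 3. Of the Hgf sequence, 6.31% of the words also occur in Gm43489, which overlaps it on the same strand, so a small part of its counts could be split.

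The start region of Hgf is shown since this gene had the largest difference among the members. The first of its 2 RefSeq windows lies at chr5:16553245-16553544 on the plus strand of GRCm38.p6, and no capitals are used because neither the full element nor its core occurs in it.
Hgf: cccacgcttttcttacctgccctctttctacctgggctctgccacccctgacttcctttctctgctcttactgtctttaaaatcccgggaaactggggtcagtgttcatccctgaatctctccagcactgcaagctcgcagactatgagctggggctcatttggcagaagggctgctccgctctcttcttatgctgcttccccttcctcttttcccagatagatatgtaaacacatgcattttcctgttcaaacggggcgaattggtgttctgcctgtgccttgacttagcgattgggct
This window holds 7 CpG dinucleotides, the median of all windows being 7, while the window of Met holds 34.

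Markers of several cell types were lower in the fasting libraries as well, and their part in the Hgf result was not tested. At an unadjusted edgeR p below 0.05, all 7 microglia markers were lower, as were 6 of 7 oligodendrocyte markers, 4 of 5 precursor markers, 4 of 8 astrocyte markers (1 other was higher), 3 of 7 cortical neuron markers and 2 of 5 GABA neuron markers. Of 6 pan-neuronal markers 1, Stmn2, and of 5 choroid plexus and ependyma markers 1, Ccdc153, were higher. Over all genes 11.6% were lower and 8.74% higher at this threshold. The summed microglia level was 318 to 445 CPM ad libitum and 255 to 262 CPM under fasting. The summed oligodendrocyte level was 13645 to 18588 CPM and 9671 to 12113 CPM, and the precursor level 310 to 382 CPM and 232 to 258 CPM. The summed astrocyte level was 3034 to 4001 CPM and 2741 to 3032 CPM, and the summed cortical neuron level overlapped, at 103 to 263 CPM and 151 to 257 CPM. Of 6 endothelial markers 3 were lower and 1 higher, with sums of 262 to 294 CPM and 267 to 282 CPM, and of 8 mural and fibroblast markers 2 were lower, with sums of 206 to 211 CPM and 164 to 177 CPM. The pan-neuronal sum overlapped, at 4038 to 5252 CPM and 4973 to 5314 CPM. Of 91 marker genes over all lists 0 were called by edgeR or limma-voom. DESeq2, which called Hgf, called 27 of them, 24 lower and 3 higher, against 7.4% of all genes. All 7 microglia, 6 oligodendrocyte and 4 precursor markers were among the lower. Aqp4, the water channel of astrocytes, read 279, 312 and 468 CPM in the ad libitum group and 174, 176 and 176 CPM with fasting, with its highest value in the same library as Hgf. It is named here because of that pattern. The summed level of 5 red blood cell markers was also highest there, at 1736 CPM against 254 to 657 CPM elsewhere, and without that library the log2 fold change of Hgf was -1.71. List medians of the log2 fold change were -0.61 for microglia, -0.57 for precursors, -0.50 for oligodendrocytes and -0.24 for astrocytes, beside -2.05 for Hgf.

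Met (ENSMUSG00000009376), the receptor of HGF, read 2.58, 2.15 and 4.47 CPM in the ad libitum group. Fasting libraries read 1.96, 1.76 and 2.58 CPM. Ad libitum replicate 3 was the high library, as for Hgf, and the groups overlapped. The means were 3.07 ± 1.23 and 2.10 ± 0.429 CPM, a log2 fold change of -0.55 with a 95% interval of -1.26 to 0.17 (edgeR adjusted p = 0.365). Without ad libitum replicate 3 it was -0.17 (adjusted p = 0.747). Zfp459 (r = 0.98), St8sia6 (r = 0.97) and Osgin2 (r = 0.97) were the genes most like Met over the 6 libraries. Without ad libitum replicate 3 and fasting replicate 2 the r was 0.81, 0.92 and 0.92.

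Of 15 genes that activate or inhibit HGF or belong to the MET family, 10 were tested and 0 were called by edgeR, DESeq2 or limma-voom. At an unadjusted edgeR p below 0.05, 1 was higher and 2 were lower, where 8.74% and 11.6% of all genes were. Plxnb1, a semaphorin receptor that can associate with MET, was at 145 ± 15.5 CPM ad libitum and 120 ± 5.52 CPM under fasting (log2 fold change -0.27, edgeR adjusted p = 0.152). Spint2, an inhibitor of the proteases that activate HGF, was at 12.7 ± 2.84 and 17.5 ± 0.916 CPM (log2 fold change 0.46, edgeR adjusted p = 0.188). The groups of both did not overlap. The list median was -0.06, with 5 genes above 0 and 5 below.

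**Figure D3:**
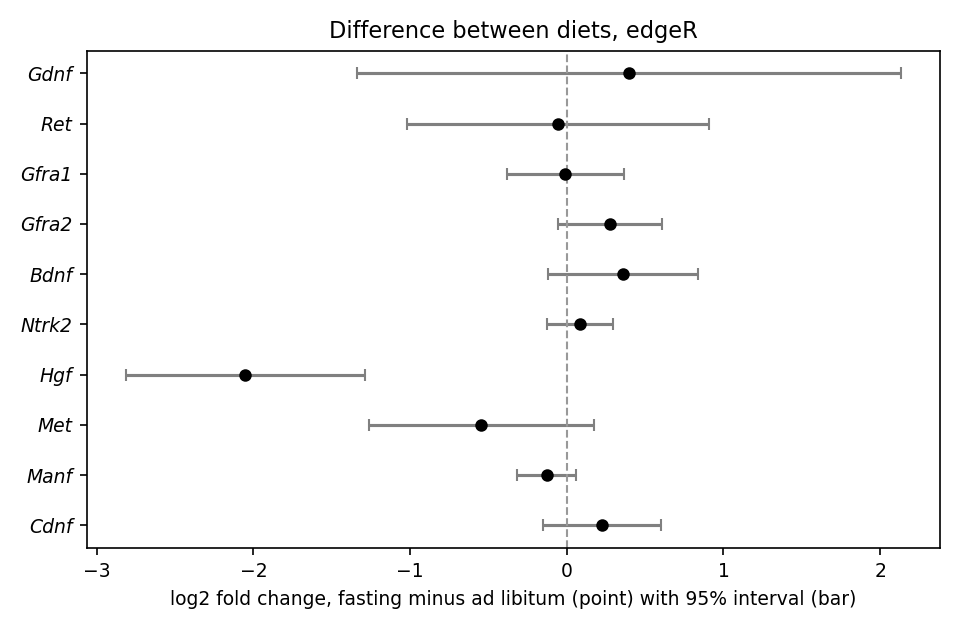
Log2 fold change of each member, fasting minus ad libitum (points), with its 95% interval from edgeR (bars). The interval of Hgf, -2.81 to -1.29, is the one that does not include 0, and those of Gdnf and Ret are the widest.

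Manf (ENSMUSG00000032575), the more abundant of the pair, overlapped between diets. Ad libitum libraries read 37.6, 33.9 and 31 CPM for Manf, fasting libraries 31.2, 32.3 and 30.4 CPM. The log2 fold change was -0.13, with a 95% interval of -0.32 to 0.06 (edgeR adjusted p = 0.408). Chchd1 (r = 0.99), Yipf5 (r = 0.99) and Pdk3 (r = 0.99) were most like Manf over the 6 libraries. Without ad libitum replicates 1 and 2 the r was 0.964, 0.819 and 0.999. Of its words 7.25% lie opposite other genes, among them Dcaf1. Its exons overlap Rbm15b on the same strand, but 0% of its words occur in another gene on that strand. Whether counting used strand is not stated, so any effect on its counts is unknown. Cdnf (ENSMUSG00000039496), its paralog, read 1.44, 1.47 and 1.58 CPM in the ad libitum group, then 1.61, 1.69 and 1.94 CPM with fasting. The groups of Cdnf did not overlap, but the gap was narrow, and 68 to 91 counts per library stood behind these values. Its log2 fold change was 0.22, with a 95% interval of -0.15 to 0.60 (edgeR adjusted p = 0.479).

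The list drawn up for MANF and CDNF held the 1 edgeR call among the lists around the members. It joins ER chaperones and reported partners with ER stress response genes. Some of these, such as Xbp1, Atf4 and Ddit3, encode transcription factors rather than ER chaperones. Of 24 genes, Pdia4, a protein disulfide isomerase, fell and 0 rose by edgeR, where 0.351% of all genes fell and 0.147% rose. At an unadjusted edgeR p below 0.05, 6 were lower and 0 higher, against 11.6% and 8.74% of all genes. DESeq2 called 3, all lower, against 7.4% of all genes, and limma-voom 0. Pdia4 read 42.0, 41.5 and 40.6 CPM in the ad libitum group, then 31.2, 32.5 and 31.7 CPM with fasting. The groups lay far apart relative to their spread, and the log2 difference was -0.38 (SE 0.05, edgeR adjusted p = 0.0422). The call ended in 9 of 14 alternatives although the log2 fold change stayed between -0.39 and -0.37, with an adjusted p of up to 0.287. Hspa5, the ER chaperone to which MANF binds, read 291, 273 and 258 CPM, then 250, 276 and 252 CPM with fasting, and its groups overlapped as those of Manf did. Calr, the chaperone calreticulin, read 321, 319 and 305 CPM, then 249, 273 and 254 CPM (log2 fold change -0.28, edgeR adjusted p = 0.0755). Hspa5 and Calr were picked once their values were known. The list median was -0.07.

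The signalling genes downstream of these receptors gave no call by edgeR, while DESeq2 called some. Of 38 adaptors and kinases edgeR called 0, DESeq2 5 (1 higher, 4 lower), against its 7.4% of all genes, and limma-voom 0. At an unadjusted edgeR p below 0.05, 2 were higher and 6 lower, where 8.74% and 11.6% of all genes were, and the median was -0.05. Gab1, the docking protein through which MET signals, was at 94.1 ± 16.0 CPM ad libitum and 58.8 ± 4.68 CPM under fasting (log2 fold change -0.68, SE 0.13, edgeR adjusted p = 0.0685). Shc2, an adaptor of neuronal receptor kinases, was at 31.5 ± 1.38 and 39.8 ± 1.74 CPM (log2 fold change 0.34, edgeR adjusted p = 0.0646). In both genes the groups did not overlap. Of 17 tested ERK response and feedback genes, edgeR called 0, DESeq2 2, both lower, against its 7.4% of all genes, and limma-voom 0. Whether activity of the kinase cascade below these receptors differed was not tested. At an unadjusted edgeR p below 0.05, 1 was higher and 4 were lower, where 8.74% and 11.6% of all genes were. Of the 17, 12 lay below 0 and 5 above. Ier3 was the higher one (log2 fold change 0.41, edgeR adjusted p = 0.146), and Dusp6 at 0.22 and Fos at 0.25 were also above 0. Etv5, a transcription factor induced by RET and other receptors, was at 61.1 ± 3.58 and 48.9 ± 1.24 CPM (log2 fold change -0.32, edgeR adjusted p = 0.0663). Spry2, a feedback inhibitor of the cascade, was at 26.8 ± 1.25 and 21.7 ± 1.30 CPM (log2 fold change -0.30, edgeR adjusted p = 0.0853). DESeq2 called Gab1, Shc2, Etv5 and Spry2 with adjusted p-values of 0.000103, 0.00166, 0.00284 and 0.0257. Most markers of microglia, oligodendrocytes and their precursors were lower under fasting as well, and their part in these lists was not tested.

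Other trophic factors known to act on dopamine neurons, listed together with some of their receptors, lay mostly lower. Of 22 genes, 20 had a log2 fold change below 0, with a median of -0.23. At an unadjusted edgeR p below 0.05, 8 were lower and 0 higher, against 11.6% and 8.74% of all genes. None was called by edgeR or limma-voom. DESeq2 called 4, all lower, against 7.4% of all genes, among them Il6st (adjusted p = 0.000111) and Ptn (adjusted p = 0.000220). The 7 microglia markers, 6 of 7 oligodendrocyte markers and 4 of 5 precursor markers that were lower at the same threshold moved with this list, and their part in it was not tested. Il6st, the gp130 subunit of the receptors for CNTF and LIF, was at 169 ± 18.2 CPM ad libitum and 121 ± 1.64 CPM under fasting (log2 fold change -0.48, edgeR adjusted p = 0.0618). Ptn, the growth factor pleiotrophin, was at 163 ± 11.1 and 127 ± 1.96 CPM (log2 fold change -0.36, edgeR adjusted p = 0.0627). The groups of both did not overlap. Over all of these lists, 34 of 136 genes, or 25%, had an unadjusted p below 0.05, against 20.4% of all genes tested.

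**Figure D4:**
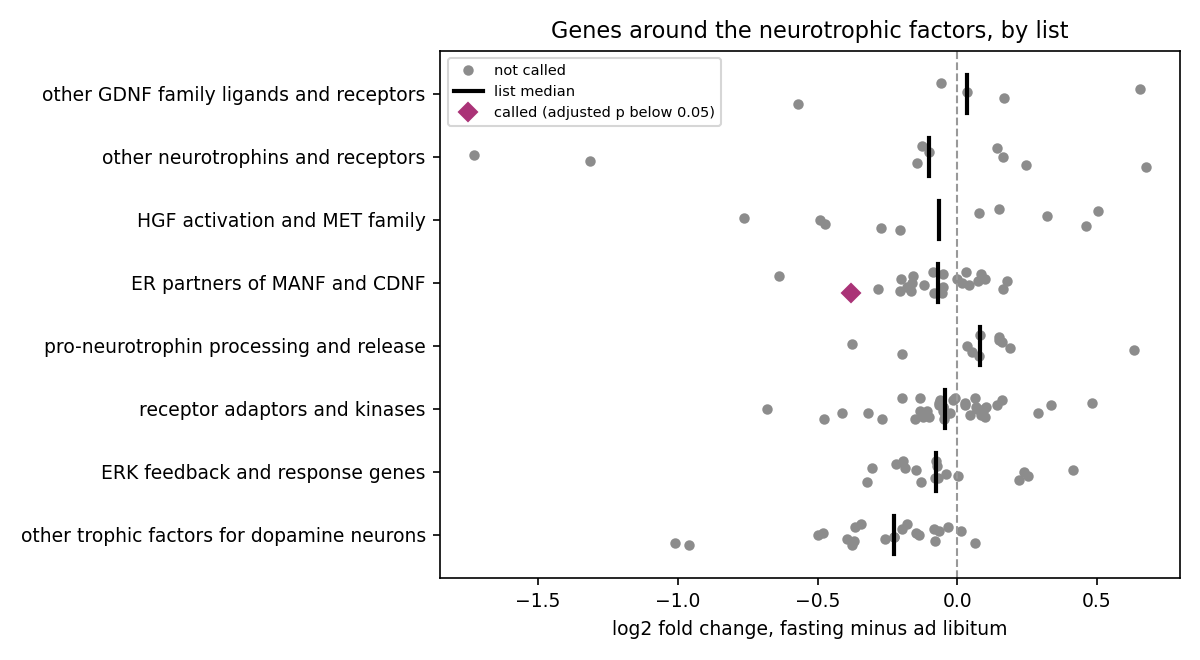
Log2 fold change, fasting minus ad libitum, of each tested gene in 8 lists around the neurotrophic factors (points), with the list median (black line) and genes called by edgeR as diamonds. The one diamond is Pdia4 at -0.38, and list medians run from -0.23 for the other trophic factors and receptors to 0.08 for proneurotrophin processing.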

How the data were processed

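The deposited table holds estimated counts for each gene in 6 libraries, as whole numbers without scaling. The tools Salmon and DESeq2 1.40.2 and the build GRCm39 are named, per the submitters' processing notes. No source used here gives their role, the annotation or the strand setting. Per the labels' protocols, libraries were made with a kit that keeps the strand.

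The whole table was fitted with edgeR 4.0.16 in R 4.3.3: filterByExpr kept 19109 genes, TMM scaled the libraries, and the quasi-likelihood test with robust shrinkage compared the diets, two-sided and without covariates. Benjamini-Hochberg adjustment ran over all genes tested, and a gene was called below an adjusted p of 0.05. The SE comes from the log2 fold change and its F, and the 95% interval uses its t quantile. Alternatives used DESeq2 1.42.0, limma-voom (limma 3.58.1), other scalings and filters, no robust shrinkage, a replicate block and each library left out. The fits were tested on simulated data.

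Named were the 10 members, in each of 8 pathway lists up to 4 called genes or else the 2 of smallest p, and the 3 genes most like Ret, Bdnf, Met and Manf. Likeness is a Pearson r of log2 CPM (prior count 2) over 6 libraries among genes with a mean of at least 1 CPM, given as a description. The members and lists were chosen with earlier results of these data known. Lengths and shared words of 31 bases came from GENCODE M21 on GRCm38, and promoter windows from RefSeq on GRCm38.p6. That build is not the one of the counts, so the only coordinates given are those of the printed promoter windows, with their build. Genes of a list that were not tested are not analysed here.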

Additional observations from a re-analysis of the deposited data

How the results depend on the processing

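No member was called by edgeR as described above or by limma-voom, and 1 member, Hgf, was called with DESeq2, with a replicate block and without ad libitum replicate 1, so the count of members called ran from 0 to 1 when single libraries were left out. Over all genes the count of calls was 95, against 1395 with DESeq2, 32 with limma-voom, 10 with total counts only, 9 without robust shrinkage and 285 with a replicate block. It ran from 0 to 1187 when single libraries were left out: leaving out an ad libitum library gave 1187, 45 and 1 calls for replicates 1, 2 and 3, and leaving out fasting replicate 1 or 3 gave 0 calls, with 2452 and 2495 genes at an unadjusted edgeR p below 0.05. The share of calls that were higher under fasting was 29.5%. It was 22.1% with a replicate block, 37.1% without ad libitum replicate 1 and 39.1% with DESeq2. With a filter at a mean count of 50 it was 30.5%, without a filter 32.1%, and with relative log expression scaling 33.3%. It was 66.7% without ad libitum replicate 2, 66.2% without fasting replicate 2 and 53.1% with limma-voom. With total counts only it was 80%, and without robust shrinkage 77.8%. The 1 call without ad libitum replicate 3 was higher.

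The log2 fold change of Ret was 0.0015 with limma-voom and 0.0070 with a replicate block, and ran from -0.32 to 0.40 when single libraries were left out. That of Gfra1 was 0.0100 with limma-voom and 0.0090 with a replicate block, and ran from -0.15 to 0.16. That of Gdnf ran from -0.045, without fasting replicate 1, to 1.55. The cause was not tested. Gfra2, Bdnf, Ntrk2, Hgf, Met, Manf and Cdnf kept their direction in every alternative run, while a filter at a mean count of 50 left Gdnf and Hgf untested.

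Deviations from the group means correlated between the diets at 0.21, -0.04 and -0.11 for replicate numbers 1, 2 and 3. For unequal numbers the values ran from -0.14 to 0.19. Deviations within a group of 3 libraries depend on each other, so these values cannot settle whether the numbers pair the libraries. With the replicate block, Hgf stood at -2.01 (edgeR adjusted p = 0.0449). Depth limits Gdnf and Hgf most, with as few as 8 and 14 counts in a library.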
